A study of Mus musculus and Homo sapiens with 27 samples.

Results

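Resting B cells that lack the transcription factor IRF4 were compared with heterozygous B cells before any LPS was given. The comparison was made up of 6 of the 27 arrays in the series, chosen by their titles: 3 arrays of unstimulated Irf4 knockout cells (KO, homozygous, -/-) and 3 arrays of unstimulated heterozygous cells (Het, -/+). All were splenic B cells of adult Balb-c mice. No wild-type array was used, so each difference sets cells with no intact Irf4 allele against cells that carry one deleted allele themselves. The labels place the cells in RPMI medium with serum but do not say how long the unstimulated cells were cultured. The series' design text calls the repeats biological, and the labels do not name the animals, so the p-values measure the spread between these arrays only.

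IRF4 is a transcription factor of the interferon regulatory factor family that is made mainly in lymphoid cells. In B cells its level climbs after antigen receptor or Toll-like receptor signals, and it is required for the change into antibody-secreting plasma cells and for immunoglobulin class switching. It binds DNA weakly alone and more tightly next to an ETS factor such as PU.1 or Spi-B, on a composite element that joins a GGAA core to a GAAA core.

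Each array was a spotted cDNA lymphochip on which Cy5-labelled cDNA of the B cells competed with a Cy3-labelled reference pool of RNA from mouse B-cell, T-cell and macrophage lines. The deposited values are log ratios, read here as log2 of B cells over pool. Each array was then centred on its median over all features, which ran from -0.44 (Het replicate 1) to -0.09 (Het replicate 3). A value of 0 therefore means the array's median ratio, and above or below the pool is said relative to that median. Of 12292 features, 559 had exactly 1 gene symbol in the platform annotation, 44 had several and 11689 had none. The 559 features gave 331 genes, 216 of them from 2 features, 109 from 1 feature and 6 from 3 features. Irf4 was not among the named features, so the deletion itself was not checked on the arrays. Cd79b, a signalling chain of the B-cell antigen receptor, lay above the pool on every array, at 2.85, 3.25 and 2.43 in KO cells and at 3.82, 4.04 and 2.56 in Het cells. This is the direction a B-cell label and a ratio of cells over pool would give.

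The 6 arrays differed widely in the spread of their values. The SD over all features was 1.35, 2.20 and 1.08 log2 units on KO replicates 1, 2 and 3, and 2.81, 3.01 and 1.44 on Het replicates 1, 2 and 3. Values more than 6 log2 units below the array median made up 0.594%, 5.89% and 0.155% of features on the KO arrays and 10.8%, 12.3% and 1.42% on the Het arrays. By the SD and by this share, the wide arrays were Het replicates 1 and 2, and to a lesser degree KO replicate 2. The database numbers in the titles fall into a lowest range (KO replicate 1, Het replicates 1 and 2), a middle range (KO replicate 2) and a highest range (KO replicate 3, Het replicate 3). KO replicate 1, of the lowest range, was narrow by the SD but not by the median absolute deviation over all features. That measure was 0.80 on KO replicate 1 and 1.055 and 1.16 on Het replicates 1 and 2. It was lower outside the lowest range, at 0.69 and 0.55 on KO replicates 2 and 3 and 0.62 on Het replicate 3. Among the 216 genes with 2 features, the features differed by over 2 log2 units for 6, 10 and 8 genes on the KO arrays and for 35, 55 and 10 genes on the Het arrays. Over the 331 genes, the closest pairs of arrays were KO replicates 1 and 3 (r = 0.69), KO replicate 3 with Het replicate 3 (r = 0.66) and Het replicates 1 and 2 (r = 0.64), given as a description because all arrays share the pool.

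**Figure D1:**
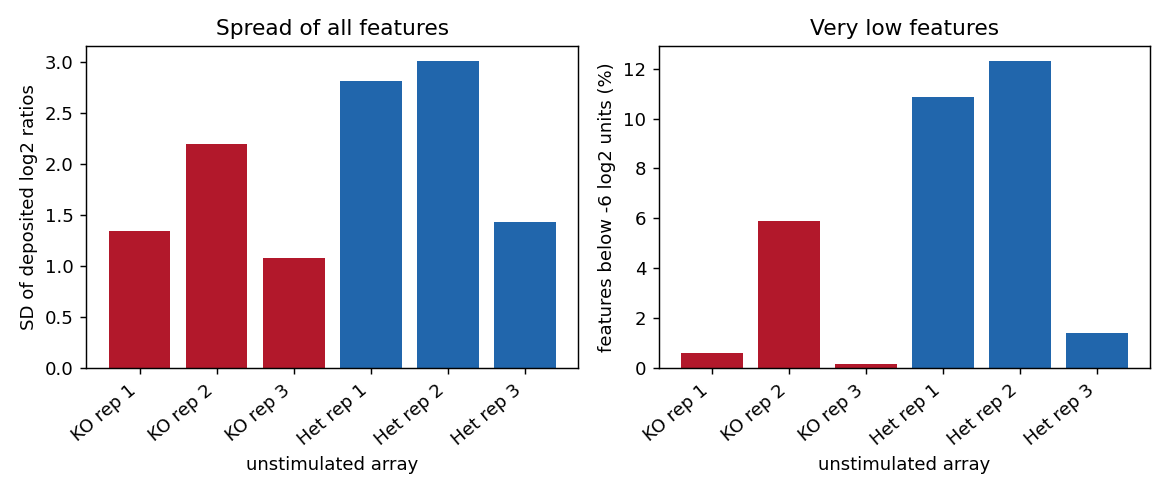
Spread of the 6 unstimulated arrays. The left bars give the SD of the deposited log2 ratios over 12292 features and the right bars the percentage of features more than 6 log2 units below the array median, for the KO arrays (red) and then the Het arrays (blue). Het replicates 1 and 2 have SDs of 2.81 and 3.01 and more than 10% of features in the very low class, and KO replicate 2 lies between them and the other 3 arrays.

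Before LPS, 1 gene was lower in KO cells and 5 genes were higher. The lower gene was Jchain, which encodes the joining chain that links IgM and IgA into polymers. The higher genes were Ctps (CTP synthase), Nars (asparaginyl-tRNA synthetase), Mt2 (metallothionein 2), Idh1 (cytosolic isocitrate dehydrogenase) and Gbe1 (glycogen branching enzyme). These 6 of 331 genes, or 1.81%, had a Benjamini-Hochberg adjusted p under 0.05 in limma fitted to all 23 mouse arrays, with 1.51% called higher and 0.302% called lower. An unadjusted p under 0.05 was reached by 57 genes. The fit takes its estimate of spread from the LPS arrays too, and the unstimulated Het arrays were the most variable group, with a median SD per gene of 0.88 in Het cells against 0.48 in KO cells and 0.19 to 0.58 in the LPS groups. When limma was fitted to the 6 unstimulated arrays alone, no gene was called, 13 genes had an unadjusted p under 0.05 and each of the 6 genes had an adjusted p of 0.80.

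Jchain had log2 ratios of -2.66, -10.27 and -3.46 in KO cells, against 1.83, 2.65 and 1.45 in Het cells. Every KO array lay below the pool and every Het array above it, so the groups did not overlap. The mean was -5.46 ± 4.18 in KO cells and 1.98 ± 0.62 in Het cells (SD, n = 3 each), a difference of -7.44 ± 1.25 (SE; limma, adjusted p = 0.00431). The size leans on KO replicate 2, a wide array; without it the difference was -5.04 (adjusted p = 9.18e-05). The contrast was nearly the same within the lowest database range, at -4.90, and within the highest, at -4.91, each of which holds a single KO array. An exact two-sided permutation test of the 3 KO against the 3 Het arrays gave p = 0.1, the smallest that 3 against 3 allows. Jchain rested on 1 feature. In bulk RNA, fewer antibody-secreting cells and less Jchain RNA per cell cannot be told apart.

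The call for Jchain held in 17 of the 20 other settings tried. It was lost in both fits limited to the unstimulated arrays and, narrowly, when the arrays of the lowest database range were left out (difference -8.32, adjusted p = 0.051). It held without the 3 wide arrays (difference -4.51, adjusted p = 0.00624), where the lone Het array is assumed to vary like the other groups.

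Other genes of antibody-secreting cells did not move with Jchain as a group. Of 20 plasma cell genes listed, 9 were measured, of which 5 lay below 0 and 4 above, with a median difference of -0.60, against 182 of 331 below 0 and a median of -0.10 over all genes. Jchain is 1 of the 5 below 0, and the other 8 genes split into 4 below and 4 above. Prdm1, which rested on 1 feature, encodes Blimp-1, the repressor that drives plasma cell differentiation. It had -0.90, -5.58 and -0.66 in KO cells and 3.13, 1.81 and -1.66 in Het cells. Het replicate 3 lay below KO replicates 1 and 3, so the groups overlapped, at a difference of -3.48 ± 1.76 (SE; limma, adjusted p = 0.321), and the highest database range gave 1.00, the opposite sign.

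Sdc1 encodes syndecan-1 (CD138), a surface marker of plasma cells. It had -1.01, -3.13 and -0.77 in KO cells and -3.16, -0.78 and 3.79 in Het cells, a difference of -1.58 (limma, adjusted p = 0.551). One array, Het replicate 3, lay far above the others, and without it the difference was 0.34. The features of Sdc1 did not agree. The second gave -4.60, lower in KO cells without overlap, and the first gave 1.43 with overlap. Xbp1, which drives the expansion of the endoplasmic reticulum in plasma cells, differed by 0.62 (limma, adjusted p = 0.529) and overlapped between the groups. Its 3 features gave 0.44, 2.11 and -0.68, and the second read -5.93 on Het replicate 2.

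Mzb1, which encodes an endoplasmic reticulum protein that helps IgM assembly, lay the other way from Jchain. It rested on 1 feature and had 1.01, -0.05 and 0.36 in KO cells and -4.56, -8.60 and -0.07 in Het cells. All KO arrays lay above all Het arrays, by a narrow gap to Het replicate 3, and the difference was 4.85 ± 1.71 (SE; limma, adjusted p = 0.149). It was 0.44 within the highest database range, 2.76 without Het replicate 2, and 7.02 and called without Het replicate 3 (limma, adjusted p = 0.0071). Of the remaining members, Ell2 differed by 1.31, Iglv1 by 0.76 and Edem1 by -0.60.

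Slpi encodes a secreted inhibitor of leukocyte proteases. It had -4.35, -5.22 and -3.04 in KO cells and -2.36, 0.02 and -1.12 in Het cells. All KO arrays lay below all Het arrays, but the difference of -3.05 ± 0.95 (SE; limma, adjusted p = 0.143) did not pass. Its features did not agree. The second gave -5.29 and was called when features were fitted one by one (limma, adjusted p = 0.039), while the first gave -0.82. On the second feature Het replicate 2 read 1.179, against -2.91 and -2.89 on Het replicates 1 and 3. The same 1.179 stood on that array for features of Arhgef1, Cd47, Cdk18, H2-DMb1 and St8sia4, and its origin was not tested. Slpi stayed below 0 within both database ranges, at -3.18 and -1.92.

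**Figure D2:**
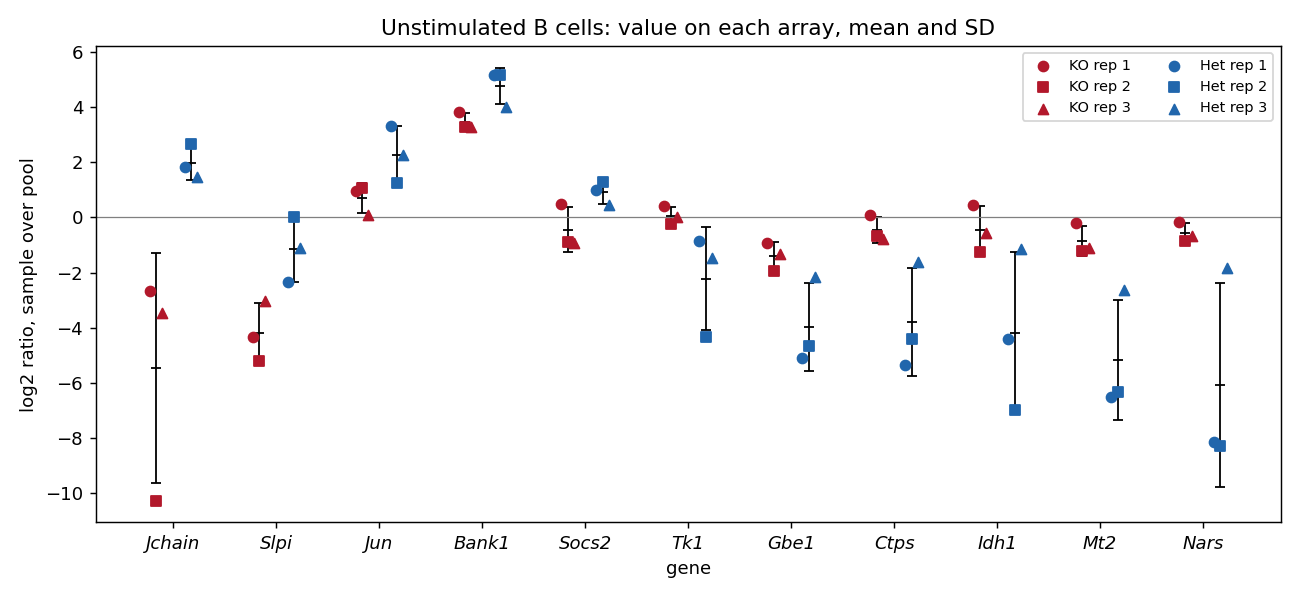
Log2 ratio over the reference pool of named genes on each unstimulated array, with KO points (red) left of Het points (blue), and the mean with its SD. Jchain lies below the pool on all KO arrays and above it on all Het arrays. For the genes called higher, the KO points lie close together and Het replicates 1 and 2 lie far below Het replicate 3. For Tk1, which was not called, Het replicate 1 lies above Het replicate 3.

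The genes called higher in KO cells share a pattern: Het replicates 1 and 2 lay far below all KO arrays. Het replicate 3 lay between them and the KO arrays, or for Idh1 within the range of the KO arrays. Nars, which charges tRNA with asparagine for protein synthesis, had -0.15, -0.85 and -0.66 in KO cells, against -8.14, -8.28 and -1.82 in Het cells. The groups did not overlap, and the difference was 5.53 ± 1.11 (SE; limma, adjusted p = 0.011). Within the lowest database range it was 8.06 and within the highest 1.16, the same direction at a very different size. Nars rested on 1 feature.

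Ctps makes CTP from UTP for RNA and lipid synthesis. Its values were 0.07, -0.67 and -0.78 in KO cells and -5.36, -4.43 and -1.60 in Het cells, a difference of 3.34 ± 0.65 (SE; limma, adjusted p = 0.011). The groups did not overlap as gene means, but the 2 features differed. The first read 1.01, -0.65 and -0.76 in KO cells and -10.38, -8.35 and -1.40 in Het cells. The second read -0.86, -0.70 and -0.81 in KO cells and -0.34, -0.50 and -1.80 in Het cells, so on this feature Het replicates 1 and 2 lay above the KO arrays and only Het replicate 3 lay below them.

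Gbe1 adds the branch points of glycogen. It had -0.93, -1.94 and -1.32 in KO cells and -5.10, -4.65 and -2.15 in Het cells, a difference of 2.57 ± 0.62 (SE; limma, adjusted p = 0.035). Its features parted in the same way as those of Ctps: the first read -9.53 and -8.56 on Het replicates 1 and 2, the second -0.67 and -0.73. With feature values beyond 6 log2 units set to missing, the difference for Gbe1 turned to -0.21.

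Idh1 oxidises isocitrate in the cytosol and yields NADPH. Its values were 0.46, -1.26 and -0.56 in KO cells and -4.42, -6.99 and -1.15 in Het cells. KO replicate 2 lay below Het replicate 3, so the groups overlapped, at a difference of 3.73 ± 0.88 (SE; limma, adjusted p = 0.033). Within the highest range it was 0.59, the smallest of the 5.

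Mt2 binds zinc, copper and cadmium, and its transcription is known to answer to zinc through metal response elements. It had -0.22, -1.22 and -1.11 in KO cells and -6.51, -6.34 and -2.65 in Het cells, a difference of 4.32 ± 0.91 (SE; limma, adjusted p = 0.013). Here both features separated the groups: the first read -0.32, -1.40 and -1.25 in KO cells and -1.74, -2.03 and -2.63 in Het cells, and the second -0.12, -1.03 and -0.97 in KO cells and -11.28, -10.66 and -2.66 in Het cells. The first feature had no value in the very low class and gave a difference of 1.14, near the 1.54 of the highest database range. Of the 559 features, 6.62% lay higher and 4.11% lower in KO cells without overlap, and among the 216 genes with 2 features Mt2 was the only one whose features both lay higher in KO cells without overlap.

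**Figure D3:**
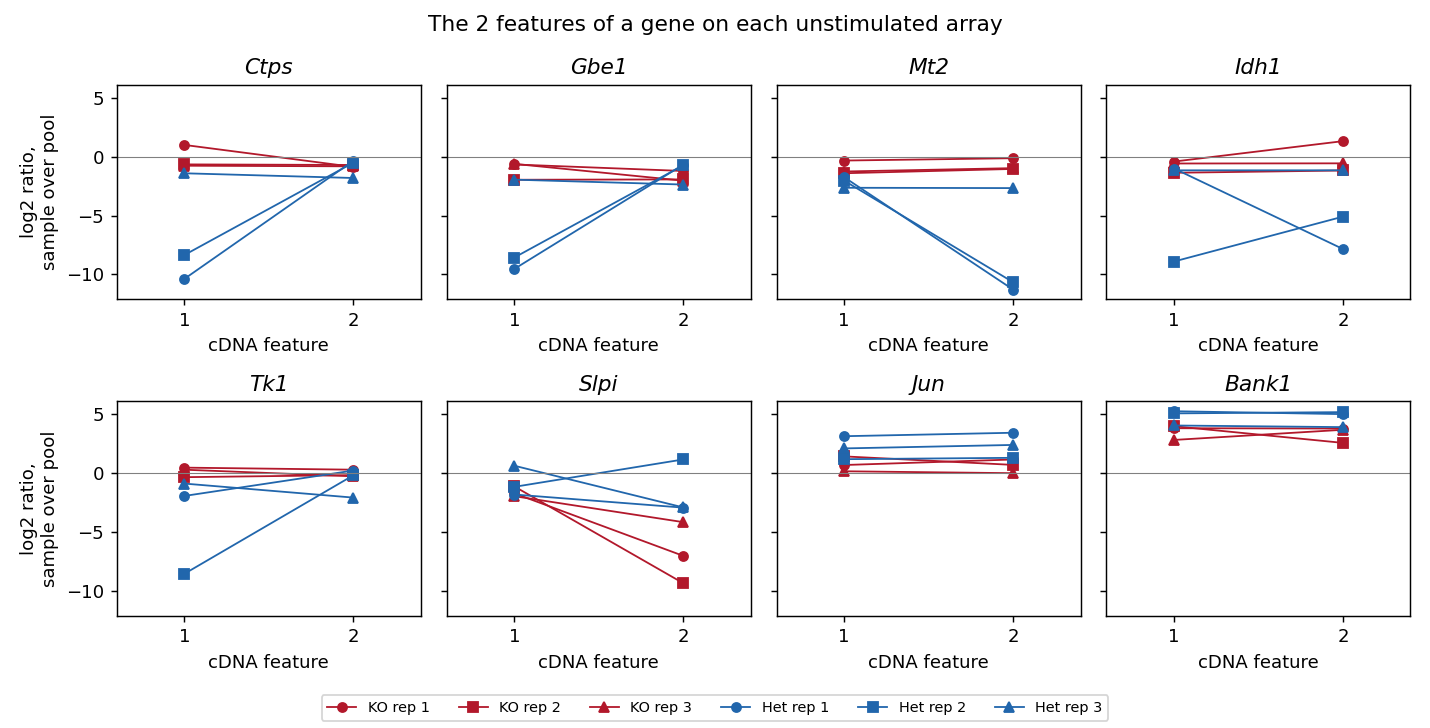
The 2 features of a gene on each unstimulated array, joined by a line (red KO, blue Het, a marker shape for each replicate). Values are log2 ratios over the reference pool, centred on the array's median. For Ctps and Gbe1 the very low values of Het replicates 1 and 2 appear on 1 feature and not on the other, while both features of Bank1 and both of Mt2 separate the groups.

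Each of the 5 higher calls depended on which arrays were kept. The differences without the 3 wide arrays were 1.41 for Nars, 1.25 for Ctps, 1.98 for Mt2, 1.10 for Idh1 and 1.03 for Gbe1, none of them called (limma, adjusted p from 0.341 to 0.533). Leaving out KO replicate 1 or Het replicate 2 ended all 5 calls, with Nars at 5.32 and 4.43 (limma, adjusted p = 0.063 and 0.069) and Ctps at 3.07 and 3.02 (limma, adjusted p = 0.0627 and 0.0502). Gbe1 was also lost without Het replicate 1 (2.00) or KO replicate 3 (2.53), and Idh1 without KO replicate 3 (3.79). The 5 genes kept their call in 13 (Nars), 12 (Ctps), 11 (Mt2), 9 (Idh1) and 7 (Gbe1) of 20 settings. For Gbe1 the settings without a call include the one with extreme feature values set to missing, where its difference changed sign. The count of called genes was 57 without Het replicate 3, 26 without Het replicate 1, and 1 without Het replicate 2 or KO replicate 1. Without the 3 wide arrays 3 genes were called: Jchain, Ell2 (4.59) and Gm7390 (7.10), the last 2 on low values of Het replicate 3 (-4.23 and -8.26).

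When each feature was fitted by itself, 7 of 559, or 1.25%, were called. They were the Jchain and Nars features, 1 feature each of Ctps, Gbe1, Idh1 and Slpi, and 1 feature of Nfe2l2, the gene for the oxidative stress factor NRF2, named after its values were seen. The called Nfe2l2 feature gave a difference of 5.19 and the other -2.10, opposite in sign.

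Of 331 genes, 37 (11.2%) had no overlap between the 3 KO and the 3 Het arrays, 25 (7.55%) higher and 12 (3.63%) lower in KO cells. They include 5 of the 6 called genes, all but Idh1. The balance of directions depended on the arrays, with 40 higher and 127 lower without Het replicate 3 and 28 higher and 36 lower without KO replicate 1. All 37 had the same sign within the lowest and within the highest database range, as non-overlap requires. Bank1 was the only gene of the 216 whose 2 features both lay lower in KO cells without overlap. It encodes a B-cell scaffold protein with ankyrin repeats that couples the antigen receptor to calcium release. Bank1 had 3.82, 3.30 and 3.27 in KO cells, against 5.15, 5.15 and 4.00 in Het cells. It was well above the pool on every array, and the difference of -1.30 ± 0.37 (SE; limma, adjusted p = 0.101) corresponded to a ratio 2.47-fold lower in KO cells. It was -1.33 within the lowest range and -0.73 within the highest, and its size depended on the scaling: it was -1.15 and called with arrays centred on the named features (limma, adjusted p = 0.00604), and -0.06 with each array scaled to the same median absolute deviation.

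Jun, a subunit of the immediate-early AP-1 factor, had 0.94, 1.08 and 0.09 in KO cells and 3.30, 1.26 and 2.27 in Het cells. The groups did not overlap, by the narrow gap between KO replicate 2 and Het replicate 2, and the difference was -1.57 ± 0.48 (SE; limma, adjusted p = 0.140). Unlike the 5 higher genes, Jun did not shrink on the narrow arrays, with -2.17 within the highest range and -1.75 without the 3 wide arrays. Nr4a1, an immediate-early nuclear receptor that follows antigen receptor signals, differed by -1.16 (limma, adjusted p = 0.156) and overlapped between the groups. All 4 measured immediate-early and activation genes of 31 listed lay below 0 (Jun, Nr4a1, Myc and Pim1), with a median of -0.91 and none called, and all 4 stayed below 0 under each scaling tried. Within the highest range 3 of the 4 lay below 0, against 104 of 331 genes there.

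Socs2, a feedback inhibitor of cytokine signalling, had 0.50, -0.90 and -0.94 in KO cells and 1.00, 1.27 and 0.45 in Het cells. Only KO replicate 1 reached into the Het range, and the difference was -1.35 ± 0.45 (SE; limma, adjusted p = 0.149). The difference over the LPS times was of like size, -1.57. Tsc22d3, the glucocorticoid-induced leucine zipper gene, was among the genes highest over the pool, at 3.68, 2.38 and 2.30 in KO cells and 5.31, 4.00 and 3.25 in Het cells, a difference of -1.40 (limma, adjusted p = 0.149). It was -0.26 without the 3 wide arrays, -0.84 without Het replicate 1, and -1.87 and called without Het replicate 3 (limma, adjusted p = 0.015).

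The other genes next in order of p, or largest without overlap, all had a higher mean in KO cells, and in each Het replicate 2 lay below all KO arrays. Het replicate 1 was not far below Het replicate 3 in all of them. It was 0.57 for Gabpa, -0.62 for Nudt4 and -0.58 for Tbrg4, where Het replicate 3 was 0.32, -0.80 and -0.16. Gramd1a had 0.03, -0.28 and 0.28 in KO cells and -2.84, -8.31 and -0.63 in Het cells, a difference of 3.94 (limma, adjusted p = 0.101). Gabpa, the DNA-binding subunit of the ETS factor GABP, had 1.72, 1.44 and 1.68 in KO cells and 0.57, -5.64 and 0.32 in Het cells, a difference of 3.20 (limma, adjusted p = 0.144). In both, the groups did not overlap and Het replicate 2 was far lower than the rest, with differences of 0.91 for Gramd1a and 1.36 for Gabpa within the highest range. Nudt4 differed by 1.94, Nfyb, a subunit of the CCAAT-binding factor NF-Y, by 1.61 and Tbrg4 by 3.41, with 0.84, 0.08 and 0.34 within the highest range. The features of Nudt4 parted at -0.05 and 3.94 and those of Nfyb at 3.54 and -0.32. Slc35a2, the UDP-galactose transporter, differed by 4.69, the survival gene Bcl2 by 2.14 and Fxyd5 by 3.34. All 3 overlapped between the groups and lay between 0.08 and 0.22 within the highest range.

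The promoters of Jchain and Bank1 are shown because Jchain was the gene called lower and Bank1 the gene whose features both lay lower without overlap. Each is the 300-base RefSeq window around the gene start on GRCm38.p6, written 5′ to 3′ along the gene. Both strands were searched for the ETS-IRF composite letters, a GGAA core and a GAAA core with any 2 bases between them, and capitals mark the match in Bank1. The windows are chr5:88527848-88528147 (minus strand) for Jchain and chr3:136326017-136326316 (minus strand) for Bank1.
Jchain: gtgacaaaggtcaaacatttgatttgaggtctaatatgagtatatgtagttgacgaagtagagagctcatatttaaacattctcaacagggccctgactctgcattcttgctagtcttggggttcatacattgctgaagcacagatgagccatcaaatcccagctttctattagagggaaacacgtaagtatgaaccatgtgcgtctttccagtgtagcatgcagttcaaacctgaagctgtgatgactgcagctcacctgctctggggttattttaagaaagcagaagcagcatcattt
Bank1: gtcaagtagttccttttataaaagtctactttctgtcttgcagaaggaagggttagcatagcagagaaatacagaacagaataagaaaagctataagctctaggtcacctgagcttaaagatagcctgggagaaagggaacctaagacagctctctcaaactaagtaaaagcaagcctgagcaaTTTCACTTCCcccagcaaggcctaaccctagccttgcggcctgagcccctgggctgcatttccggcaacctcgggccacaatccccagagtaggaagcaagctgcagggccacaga

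The Bank1 window held 1 match to the composite letters, at position -66 from the gene start on the strand opposite to the gene. Of 32851 RefSeq mouse promoter windows of this length, 2.72% held at least 1. The Jchain window held neither these letters nor the interferon response pair, 2 GAAA cores with any 2 bases between them, which 3.44% of windows held. Some letters can serve both motifs. These are letter matches only and say nothing of binding in these cells.

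Proliferation and DNA replication genes lay above 0 as a list, while none of them was called. The median of all genes moves with the scaling, from -0.10 as centred here to 0.10 with arrays scaled to the same median absolute deviation, so each list is given beside it. Of 48 listed, 10 were measured and all 10 had a higher mean in KO cells, with a median of 0.69, against 149 of 331 genes (45.0%) above 0 and a median of -0.10. Within the highest database range 10 of 10 were above 0 with a median of 1.34, against 227 of 331 and 0.23, and within the lowest range 8 of 10 with a median of 0.22, against 164 of 331 and -0.01. All 10 also lay above 0 with arrays scaled, quantile normalized or centred on the named features, and 8 of 10 with array weights. Without Het replicate 3 the count fell to 5 of 10 with a median of 0.13, against 101 of 331 and -0.44 there, so 5 of the 10 directions rested on that 1 array.

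Tk1, the thymidine kinase of the DNA salvage pathway, came closest to a call. It had 0.40, -0.24 and 0.03 in KO cells and -0.84, -4.35 and -1.47 in Het cells, without overlap, and a difference of 2.28 ± 0.62 (SE; limma, adjusted p = 0.079). The first feature gave 3.93 without overlap and the second 0.63 with overlap. Without Het replicate 2 the difference was 1.22, and it was called without Het replicate 1 (2.97) or Het replicate 3 (2.66; limma, adjusted p = 0.021 and 0.015). Rrm2, a subunit of ribonucleotide reductase, had -0.18, -0.68 and -0.58 in KO cells and -1.42, -10.92 and -1.33 in Het cells. Its difference of 4.08 (limma, adjusted p = 0.213) came mostly from Het replicate 2, though the groups did not overlap.

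Mcm2, a subunit of the replicative helicase, showed how the arrays divided. It had 0.39, 0.22 and 0.02 in KO cells and 0.90, -0.10 and -1.44 in Het cells, so only Het replicate 3 was clearly low. Pcna, the sliding clamp of DNA polymerase, had 0.23, 0.19 and -0.10 in KO cells and 0.48, 0.28 and -1.59 in Het cells. The replicates fell in the same order as for Mcm2 within each genotype. However, Het replicate 2 lay below all KO arrays for Mcm2 and above them for Pcna. Mki67, the Ki-67 antigen of cycling cells, had -0.47, -0.92 and -1.07 in KO cells and -0.56, -0.79 and -3.12 in Het cells, again with 1 low Het array.

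Genes of mature resting B cells lay below 0 as a list. All 7 measured of 32 (Cd79b, Bank1, Ets1, Btg1, Id3, Foxp1 and Tcf4) had a lower mean in KO cells, with a median of -0.96 and none called, but 3 of the 7 turned positive, with a median of -0.06, when arrays were scaled to the same median absolute deviation. Within the highest range all 7 were still below 0, but at a median of -0.13, and without the 3 wide arrays 4 of the 7 lay above 0 with a median of 0.08, against 269 of 331 genes above 0 and a median of 0.57. Ets1, an ETS factor that restrains plasma cell differentiation, had 2.13, 1.72 and 2.03 in KO cells and 3.44, 3.31 and 2.15 in Het cells, without overlap. Het replicate 3 lay close to the KO arrays, and the difference was -1.01 ± 0.59 (SE; limma, adjusted p = 0.407). All 5 measured quiescence genes of 15 listed were also below 0, with a median of -0.72 (3 of 5 and -0.16 under that scaling); without the 3 wide arrays 3 of 5 lay above 0, with a median of 0.20. Of the 5, 2, Ets1 and Btg1, are also in the mature B cell list.

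Antigen presentation genes changed sign with the arrays kept. All 5 measured of 22 (H2-DMa, H2-DMb1, B2m, Tap1 and Psmb10) were below 0, with a median of -0.29. Within the highest range 4 of 5 were above 0 with a median of 0.41, against 227 of 331 genes and 0.23. With arrays scaled to the same median absolute deviation all 5 were above 0 with a median of 0.34, against 192 of 331 genes and 0.10. Interferon response genes were split, with 2 of 4 on either side of 0. Of 12 measured biosynthesis genes, 4 were called higher (Nars, Ctps, Idh1 and Gbe1), where 1.51% of all genes were. The list was chosen with earlier results of these data known, so this count is no test of the list. In that list 7 lay above 0 and 5 below, with a median of 0.23, which turned to -0.05 with arrays scaled, -0.17 with quantile normalization and -0.08 with extreme values missing. Of 9 measured secretory pathway genes, 7 lay below 0 with a median of -0.50, and none was called. Within the highest range 5 of the 9 lay above 0 with a median of 0.09, against 227 of 331 genes and 0.23. Without the 3 wide arrays 8 of 9 lay above 0 with a median of 0.33, against 269 of 331 genes and 0.57.

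**Figure D4:**
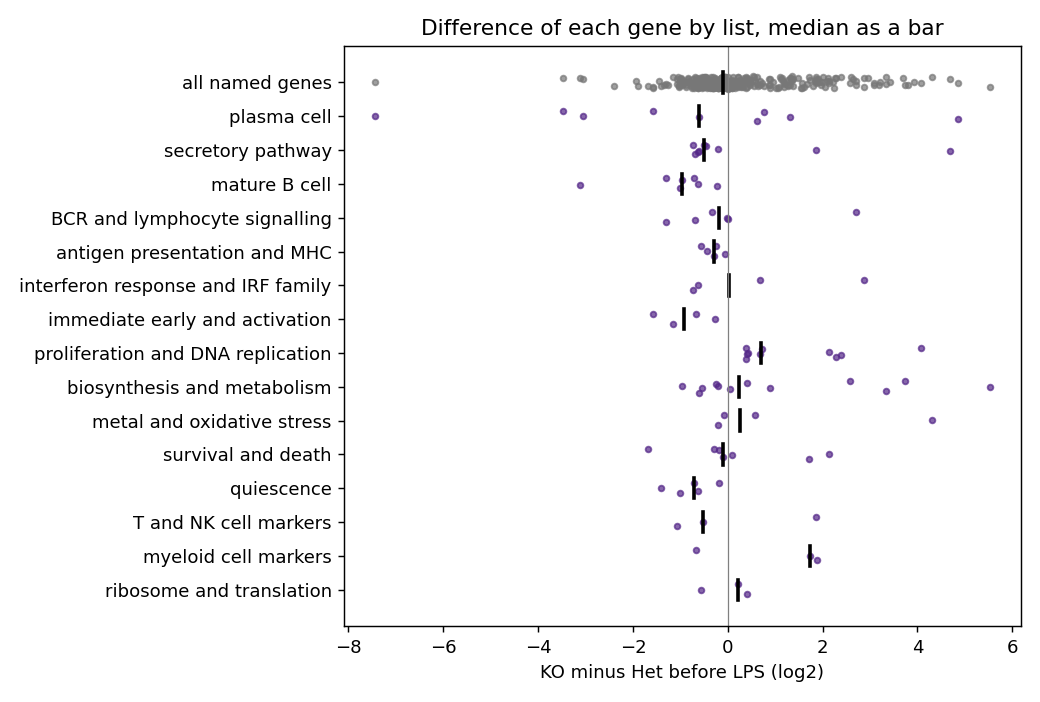
KO minus Het differences (log2) before LPS for the measured members of each gene list, a point a gene, with the list's median and the median of all 331 genes. All 10 proliferation genes lie above 0 and all 7 mature B cell genes lie below it, while called genes are few.

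Markers of other cell types were sparse among the named genes. Of 35 T and NK cell markers 3 were measured, and their mean level ranged from -2.05 to -0.73 on the KO arrays and from -2.02 to -1.11 on the Het arrays. Tcra, the T-cell receptor alpha gene, was below the pool on all 6 arrays and differed by 1.86 (limma, adjusted p = 0.494), Cd3g by -0.52 and Gzma by -1.07. Of 37 myeloid markers 3 were measured, with mean levels from 1.09 to 1.62 on the KO arrays and 1.42, -1.36 and 1.00 on the Het arrays. Tyrobp, which encodes the signalling partner DAP12 of receptors on myeloid and NK cells, averaged 0.92 ± 0.51 in KO cells and -0.82 ± 1.84 in Het cells (SD, n = 3 each), without overlap, at a difference of 1.74 (limma, adjusted p = 0.153). Without Het replicate 2 it was 0.67, and its features gave 3.64 and -0.16. It was called without Het replicate 1 (2.28) or Het replicate 3 (2.26; limma, adjusted p = 0.042 and 0.025). The other 2, Cybb and Ncf1, subunits of the phagocyte oxidase that B cells also make, differed by -0.68 and 1.89 and overlapped. The part of other cells in the differences was not tested.

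The genotype difference before LPS was also set against the mean of the differences after 24, 48 and 96 hours of LPS, which uses 17 further arrays, 9 KO and 8 Het. The 2 contrasts differed for 2 genes, or 0.604%, Ctps and Nars. Ctps differed by 3.34 before LPS and by -0.55 over the LPS times, a gap of 3.88 ± 0.76 (SE; limma interaction, adjusted p = 0.026). Nars differed by 5.53 before LPS and by -0.45 over the LPS times, a gap of 5.98 ± 1.30 (SE; limma interaction, adjusted p = 0.038). In both genes Het replicates 1 and 2 were the low arrays, and no gene was called in this test when KO replicate 1, 2 or 3 or Het replicate 2 was left out, when the 3 LPS arrays with conflicting genotype labels were left out, or when feature values beyond 6 log2 units were set to missing.

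For Jchain the difference was -7.44 before LPS and -4.61 ± 0.77 over the LPS times (SE; limma, adjusted p = 0.00251), and the gap between them, -2.83 ± 1.47 (SE), had an adjusted p of 0.402 in limma. Bank1 was -1.30 before LPS and -0.13 over the LPS times, a gap of -1.18 ± 0.43 (SE; limma, adjusted p = 0.240). For Jun the 2 differences were -1.57 and 0.05, with an adjusted p of 0.224 for the gap in limma.

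**Figure D5:**
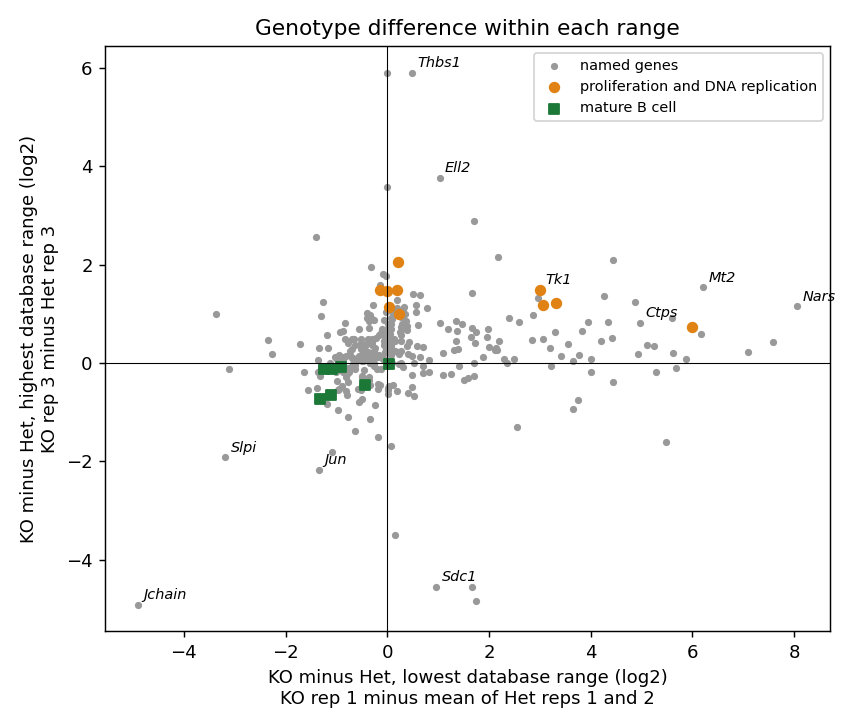
KO minus Het difference (log2) of each of the 331 genes within the lowest database range (x axis, KO replicate 1 minus the mean of Het replicates 1 and 2) and within the highest (y axis, KO replicate 3 minus Het replicate 3). Jchain lies at about -4.9 on both axes, and the genes called higher lie far to the right at 3.95 to 8.06 but only at 0.59 to 1.54 on the y axis.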

How the data were processed

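Total RNA was labelled with Cy5 and hybridised with a Cy3-labelled pool, per the labels. The deposited table held 1 log ratio per feature and array, read as log2 of cells over pool, since the files state neither base nor direction; the sources used here do not state background correction, normalization or filters. Each of the 23 mouse arrays was centred on its median over 12292 features, and features with 1 symbol in the platform annotation were averaged per gene (331 genes, 559 features, 555 matched to RefSeq by gene ID). Group differences were fitted with limma 3.58.1 in R 4.3.3, 1 mean per genotype and LPS time, with Benjamini-Hochberg adjustment over 331 genes and a threshold of 0.05. Titles gave the groups; 3 LPS arrays whose channel fields name the other genotype entered only through the spread and the LPS contrast. The OCI-Ly7 arrays were not analysed here. Named were the called genes, the 12 next by p, the 8 largest non-overlapping differences, interaction calls, cell type markers and, from up to 2 leading members of each list, those described. Members and lists were chosen with earlier results of these data known. The fit was run on simulated data with the same spread for every gene and array. It was therefore not tested under the unequal spread of these arrays.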

Additional observations from a re-analysis of the deposited data

Results flagged for a closer look

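The genotype difference before LPS departed from that over the LPS times for 2 genes, by the test of the difference itself. For Ctps the gap was 3.88, and for Nars it was 5.98. In both genes Het replicates 1 and 2, the unstimulated arrays of widest spread, were far below the pool before LPS. Of the 2 features of Ctps, 1 had no such low values. On the LPS side, Het replicate 1 at 24 hours was wider still, with an SD of 3.10 over all features. On that array 15.3% of features lay more than 6 log2 units below the median. Within the highest database range the difference before LPS was 0.82 for Ctps and 1.16 for Nars. No gene was called in this test without the 3 LPS arrays of conflicting genotype labels or with feature values beyond 6 log2 units missing. The part of the array spread in these gaps was not tested.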

How the results depend on the processing

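The count of genes called before LPS, 6, became 0 with the unstimulated arrays fitted alone (13 genes at an unadjusted p under 0.05 in limma), 2 without the lowest database range, 11 with array weights, 1 with feature values beyond 6 log2 units missing and 3 without the 3 wide arrays, an alternative chosen after seeing the data; leaving out each array in turn gave 1 to 57. Deviations from the group means of same-numbered KO and Het arrays correlated at r = -0.03, -0.03 and 0.26 for replicates 1, 2 and 3. Differently numbered pairs ran from -0.28 to 0.23. The replicate block left 6 calls with all arrays and 0 with the unstimulated arrays alone. The count of 2 interaction calls became 4 with the database range as a factor, 7 with array weights, 8 with quantile normalization, 1 with arrays centred on the named features, and 0 with extreme values missing or without the 3 LPS arrays of conflicting labels; leaving out each array gave 0 to 26. The 37 non-overlapping genes became 76 with arrays centred on the named features, which turned the split to 42 higher and 34 lower. Leaving out an array can only keep or raise this count, so its rise to between 47 and 167 says nothing of stability. The split had more lower than higher without KO replicate 1 or Het replicate 3. Differences that turned sign follow, and for each the cause was not tested. Without the lowest range they were -0.00425 for Slc35a2, -0.27 for Bcl2, -0.57 for Fxyd5, 0.32 for Tap1, 0.39 for H2-DMa, -1.22 for Csf1, -0.52 for Traf4, -0.67 for Tcra, 0.33 for Cd3g and 0.28 for Cd79b. Without the 3 wide arrays they were 0.87 for Tap1, 0.67 for H2-DMa, 0.11 for Irf1, -0.00975 for Csf1, 0.34 for Ikbke, -1.55 for Tcra, 0.31 for Gzma, 1.42 for Cd3g, 0.076 for Cd79b and 0.88 for Prdm1. With arrays scaled they were 0.067 for Tap1, 0.42 for H2-DMa, 0.038 for Cybb and 0.30 for Cd79b, and with quantile normalization 0.25 for H2-DMa, -0.41 for Tcra and 0.18 for Cd79b. With extreme values missing they were -0.21 for Gbe1, -0.90 for Bcl2 and -0.11 for Fes. Cd3g was 0.52 with the range as a factor, and Xbp1 was -0.00594 with array weights. With 1 array left out, Cd3g ran from -1.16 to 0.13 (the highest without KO replicate 2, and 0.056 without Het replicate 2), Xbp1 from -0.024 (without Het replicate 2) to 1.18, and Sdc1 from -3.14 to 0.34 (without Het replicate 3). Precision was limited by 3 arrays a group, and signal over background was not analysed here.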
